A study of Mus musculus with 8 samples.

Results

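The genes described here are 39 mouse genes that copy DNA or prepare the cell to do so: the origin licensing proteins, the replicative helicase and its activators, the sliding clamp and its loader, the polymerases, the enzymes that finish the lagging strand, the enzymes that supply deoxynucleotides, and the regulators E2f1, Ccne1 and Ccne2. They were found by matching their symbols to the gene names of the array, and all 39 were there, with 46 of the 55681 probes. The matching used no measured value, but the 39 genes were chosen with earlier results of these data known. Of the 39 genes, 38 had a probe that the scanner marked well above background on every control array or on every knockdown array, and these stood among 21731 tested genes. The exception was Ccne2, a cyclin E whose single probe was not well above background on any of the 8 arrays.

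The arrays came from mouse embryonic stem cells carried to day 6 of a neural induction, when the labels call the cells RGC-like NPC, progenitors resembling the radial glia of the developing brain. The 4 control samples carried a control short hairpin (shCtrl) and the 4 knockdown samples a short hairpin against Zrf1 (shZrf1), the gene now named Dnajc2, a J-domain co-chaperone. Both groups therefore share the hairpin system, the protocol and the day. The labels do not say how many hairpin sequences or cell clones were used, or whether replicates were separate cultures, so p-values measure only the spread between these samples, which may be technical. Each sample gave 100 ng of RNA to 1 single-colour array. Signals are given below as log2 signal relative to the 75th percentile of their array, so that 0 is that percentile. The signals of different probes are not compared with each other.

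Between 53.4% and 60.3% of the spots on an array were well above background. The targeted gene followed its labels: Dnajc2 read 1.75, 1.87, 1.85 and 2.02 on the control arrays and -2.17, -2.08, -2.51 and -2.53 on the knockdown arrays. The limma change was -4.19 (SE 0.12, adjusted p = 1.13e-07, n = 4 against 4), 18.3-fold lower. The knockdown changed a large part of all RNAs: 58% of the 21731 tested genes passed the test at an adjusted p under 0.05, and these split into 28.7% of all tested genes that were lower and 29.3% that were higher in the knockdown. Counts of replication genes are read against these shares. The median change over all tested genes was 0.04.

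DNA replication starts at origins that are licensed in G1. The origin recognition complex, with Cdc6 and Cdt1, loads the ring of Mcm2 to Mcm7 onto DNA, and in S phase Cdc45 and the GINS complex turn that ring into a running helicase. Polymerases then copy both strands on the sliding clamp Pcna. Many of these genes are transcribed in late G1 by E2F factors, which bind a short GC-rich site next to a run of T in the promoter, and embryonic stem cells and neural progenitors are known for fast cycles with much of the time spent in S phase.

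Promoter sequences were available for 32 of the 39 genes, as 37 windows of 300 bases from RefSeq (build GRCm38.p6), each running from 250 bases before to 50 bases after an annotated start. For an E2F site, any of these letters were searched on both strands: TTTCCCGC, TTTCGCGC, TTTGCCGC or TTTGGCGC. At least 1 of them stood in 12 of the 37 windows, or 32.4%, against 744 of all 32851 windows in the RefSeq table, or 2.26%. The stretches below are the 250 bases before the start for 4 genes that were lower in the knockdown (Mcm5, Mcm6, Pola1 and Cdc6), for Gins3, which did not pass the test, and for Orc1, which was higher. They are shown because the same letters stand before genes of all 3 outcomes. Capitals mark the E2F letters, read 5′ to 3′ along the gene.
Mcm5, chr8:75109259-75109508, plus strand: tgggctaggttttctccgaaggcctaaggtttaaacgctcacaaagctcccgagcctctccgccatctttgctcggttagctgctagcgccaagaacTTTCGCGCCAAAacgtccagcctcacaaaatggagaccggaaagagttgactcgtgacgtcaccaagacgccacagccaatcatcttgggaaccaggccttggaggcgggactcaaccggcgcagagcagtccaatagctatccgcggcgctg
Mcm6, chr1:128359706-128359955, minus strand: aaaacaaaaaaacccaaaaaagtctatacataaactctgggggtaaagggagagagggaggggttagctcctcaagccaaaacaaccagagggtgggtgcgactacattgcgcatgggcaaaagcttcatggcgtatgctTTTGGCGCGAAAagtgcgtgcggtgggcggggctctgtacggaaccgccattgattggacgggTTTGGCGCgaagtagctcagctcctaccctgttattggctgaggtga
Pola1, chrX:93632156-93632405, minus strand: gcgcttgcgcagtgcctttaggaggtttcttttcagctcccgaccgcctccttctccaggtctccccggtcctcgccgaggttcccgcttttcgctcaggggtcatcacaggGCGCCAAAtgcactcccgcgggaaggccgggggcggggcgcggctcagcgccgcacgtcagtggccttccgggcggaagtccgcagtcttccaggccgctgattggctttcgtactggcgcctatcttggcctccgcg
Cdc6, chr11:98907901-98908150, plus strand: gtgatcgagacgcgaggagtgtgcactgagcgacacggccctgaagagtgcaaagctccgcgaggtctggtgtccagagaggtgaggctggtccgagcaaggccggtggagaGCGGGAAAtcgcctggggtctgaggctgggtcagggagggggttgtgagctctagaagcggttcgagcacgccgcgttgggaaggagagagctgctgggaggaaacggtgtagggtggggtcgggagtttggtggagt
Gins3, chr8:95633309-95633558, plus strand: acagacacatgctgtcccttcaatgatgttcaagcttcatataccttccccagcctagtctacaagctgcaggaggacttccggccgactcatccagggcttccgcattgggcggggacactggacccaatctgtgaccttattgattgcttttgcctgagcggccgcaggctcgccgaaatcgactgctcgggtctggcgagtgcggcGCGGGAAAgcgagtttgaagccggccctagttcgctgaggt
Orc1, chr4:108579204-108579453, plus strand: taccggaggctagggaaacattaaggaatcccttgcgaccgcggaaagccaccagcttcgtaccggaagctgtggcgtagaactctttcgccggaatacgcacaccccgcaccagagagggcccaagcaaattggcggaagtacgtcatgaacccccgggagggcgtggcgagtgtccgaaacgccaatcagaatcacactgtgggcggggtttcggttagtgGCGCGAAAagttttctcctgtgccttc

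Mcm5 and Mcm6 each carry a pair of matches on opposite strands that overlap by sharing their central bases, 153 to 142 bases before the start in Mcm5 and 110 to 99 bases before it in Mcm6. Mcm6 has another match at 47 to 40 bases before the start. In Pola1 and Cdc6 the match begins 138 bases before the start, in Gins3 41 and in Orc1 27 bases before it. Among windows of genes that were lower, 8 of 27 held the letters, or 29.6%, and among windows of genes that did not pass, 3 of 9, or 33.3%. These counts include the 50 bases after the start. The other genes with a match were Mcm3, Mcm7, Rfc3, Lig1, Cdt1 and Pold1. In Mcm3 and Lig1, which were lower, and in Cdt1 and Pold1, which did not pass, the letters stood only after the start. Among genes with a window that did not pass, only Gins3 had them before the start.

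The remaining promoter letters are given in the same way. The GC box GGGCGG stood in 67.6% of the replication gene windows and in 35.7% of all windows, and it can share bases with TTTCCCGC read on the other strand. The CCAAT box (CCAAT) stood in 62.2% against 37.4%. The CHR element TTTGAA, known from genes transcribed late in the cell cycle, stood in 10.8% against 17.9%. The median GC content was 57.7% in the replication gene windows and 52.7% in all windows. A match is a description of the letters, not a measured binding site.

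Of the 38 tested replication genes, 26 were lower in the knockdown at an adjusted p under 0.05 (68.4%, against 28.7% of all tested genes) and 1 was higher (2.63%, against 29.3%). The other 11 did not pass. The median change was -0.48, with a range from -1.23 (E2f1) to 0.49 (Orc1), so most changes were moderate: 6 genes fell to 50% of the control or less, namely E2f1, Tk1, Rrm2, Pola1, Fen1 and Tyms. The first 4 of these did so in every alternative analysis with a test. Tyms changed by only -0.69 with another background correction (normexp), and Fen1 by -0.92 with the authors' deposited values. Some role groups fell as a whole. All 6 Mcm2 to Mcm7 subunits, all 6 clamp and clamp loader genes and all 4 deoxynucleotide supply genes fell. Of the clamp loader genes, Rfc1, Rfc2 and Rfc4 missed the threshold under quantile normalization between arrays. In contrast, 3 of 5 origin recognition and loading genes and 5 of 6 helicase activation genes did not pass. These role groups were not tested against each other. In 23 of the 38 genes every knockdown array lay below every control array (27.3% of all tested genes did so), and in 2, Orc1 and Rpa1, every knockdown array lay above (27.7% of all tested genes).

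**Figure D1:**
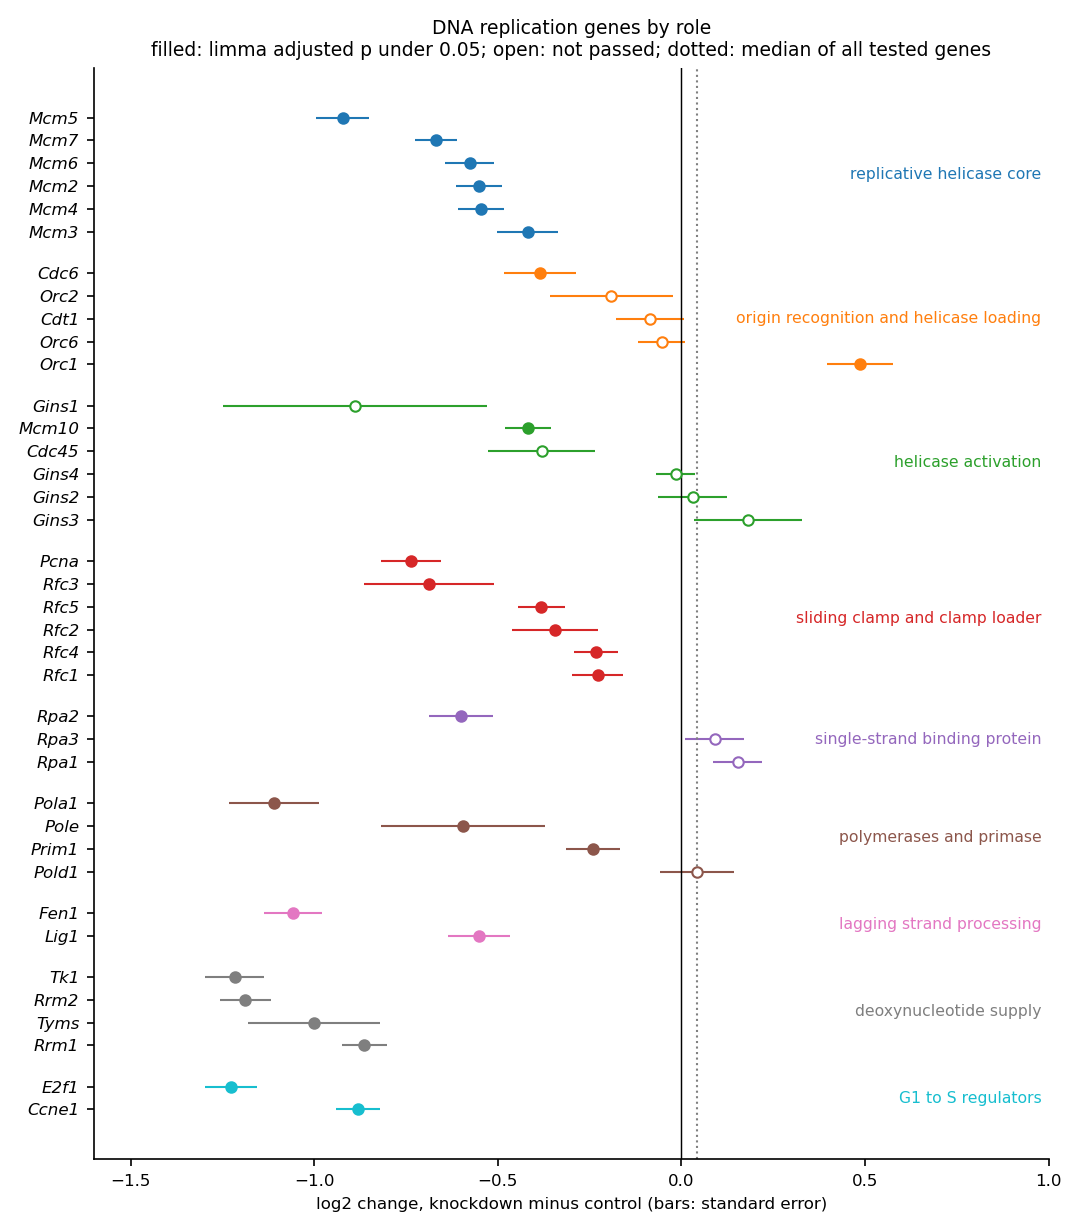
The log2 change (knockdown minus control) of each of the 38 tested replication genes, grouped by role, with bars for the standard error of the limma fit. Filled points passed at an adjusted p under 0.05, open points did not, and the dotted line is the median of all tested genes (0.04). The points run from -1.23 for E2f1 to 0.49 for Orc1.

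The shift was present on each knockdown array. Taken per array, the median deviation of the 38 genes from their control means was -0.43, -0.51, -0.46 and -0.50 on knockdown arrays 1 to 4, and between -0.03 and 0.03 on the control arrays. The arrays lay on 3 slides that each held both groups. Within slide 1 the median change was -0.36 and within slide 2 it was -0.56, each from 1 array per group. Of the 26 genes that were lower, 25 were lower within all 3 slides, and the exception was Pole. In such bulk samples, less RNA per cell and fewer cells that express a gene cannot be told apart.

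**Figure D2:**
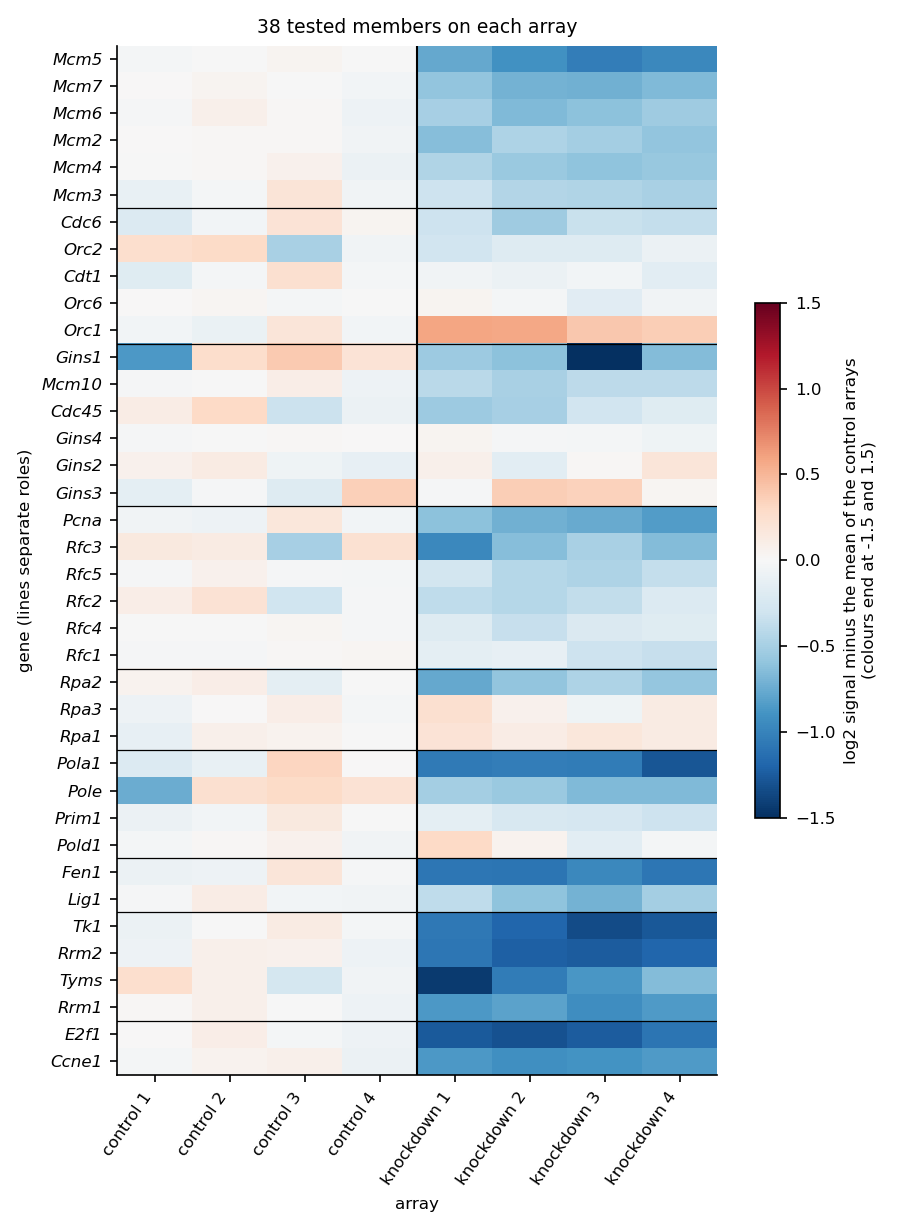
The deviation of each of the 38 tested genes (rows, grouped by role) from its control mean on each of the 8 arrays (columns), in log2 units. The knockdown columns have medians between -0.51 and -0.43, the control columns between -0.03 and 0.03. The row of Orc1 runs the other way.

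Of the regulators of S phase entry, both that were tested fell, and E2f1 had the lowest change of the 38 genes. E2f1, a transcription factor that activates replication genes, read 2.69, 2.78, 2.65 and 2.60 on the control arrays and 1.42, 1.38, 1.43 and 1.59 on the knockdown arrays. The groups lay far apart, with a change of -1.23 (SE 0.07, limma adjusted p = 2.66e-06), which leaves 42.7% of the control signal. Ccne1, the cyclin E that partners Cdk2 at S phase entry, read 5.18, 5.25, 5.28 and 5.12 in the controls and 4.35, 4.29, 4.31 and 4.35 in the knockdown. Its change was -0.88 (SE 0.06, limma adjusted p = 6.31e-06). A second Ccne1 probe, 0.38 ± 0.10 (SD, n = 4) in the controls and -0.49 ± 0.19 in the knockdown, gave -0.87. Both Ccne1 probes thus fell by the same amount within their spread.

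The enzymes that make and salvage deoxynucleotides fell as a group, 4 of 4, with a median of -1.09. Rrm2, the small subunit of ribonucleotide reductase, which limits the enzyme's activity in S phase, read 6.54, 6.69, 6.68 and 6.54 in the controls and 5.52, 5.39, 5.36 and 5.43 in the knockdown. Its change was -1.19 (SE 0.07, limma adjusted p = 2.62e-06), or 43.9% of the control signal. Rrm1, the large subunit of the same enzyme, read 4.55, 4.61, 4.53 and 4.46 against 3.68, 3.73, 3.60 and 3.69. The change of Rrm1 was smaller, -0.86 (SE 0.06, limma adjusted p = 7.17e-06). Tk1, the cytosolic thymidine kinase that salvages thymidine, read 3.73, 3.81, 3.94 and 3.79 in the controls and 2.75, 2.63, 2.48 and 2.54 in the knockdown. Its change was -1.22 (SE 0.08, limma adjusted p = 5.01e-06), and no knockdown array came near a control array in any of these 3 genes. Tyms, thymidylate synthase, had a wider spread between arrays, with -0.87 ± 0.22 (SD, n = 4) in the controls, -1.88 ± 0.33 in the knockdown and a change of -1.001.

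The 6 subunits of the replicative helicase all fell, by between 0.42 (Mcm3) and 0.92 (Mcm5) on the log2 scale, with a median of -0.56. Mcm5 read 5.20, 5.21, 5.26 and 5.22 in the controls and 4.45, 4.32, 4.18 and 4.25 in the knockdown, a change of -0.92 (SE 0.07, limma adjusted p = 1.22e-05). Mcm7 read 6.66, 6.70, 6.66 and 6.62 against 6.07, 5.96, 5.94 and 6.00, a change of -0.67 (SE 0.06, adjusted p = 2.14e-05). Mcm2 read 4.10, 4.10, 4.11 and 4.04 against 3.45, 3.62, 3.57 and 3.49, a change of -0.55 (SE 0.06, adjusted p = 0.000106). Controls of these subunits agreed closely, so that changes below 2-fold still separated the groups completely. The remaining subunits, Mcm4 (-0.54), Mcm6 (-0.58) and Mcm3 (-0.42 and -0.46 with its 2 probes), did not overlap between groups either. The subunits act as 1 ring with equal numbers of each, and the differences between their changes were not tested.

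**Figure D3:**
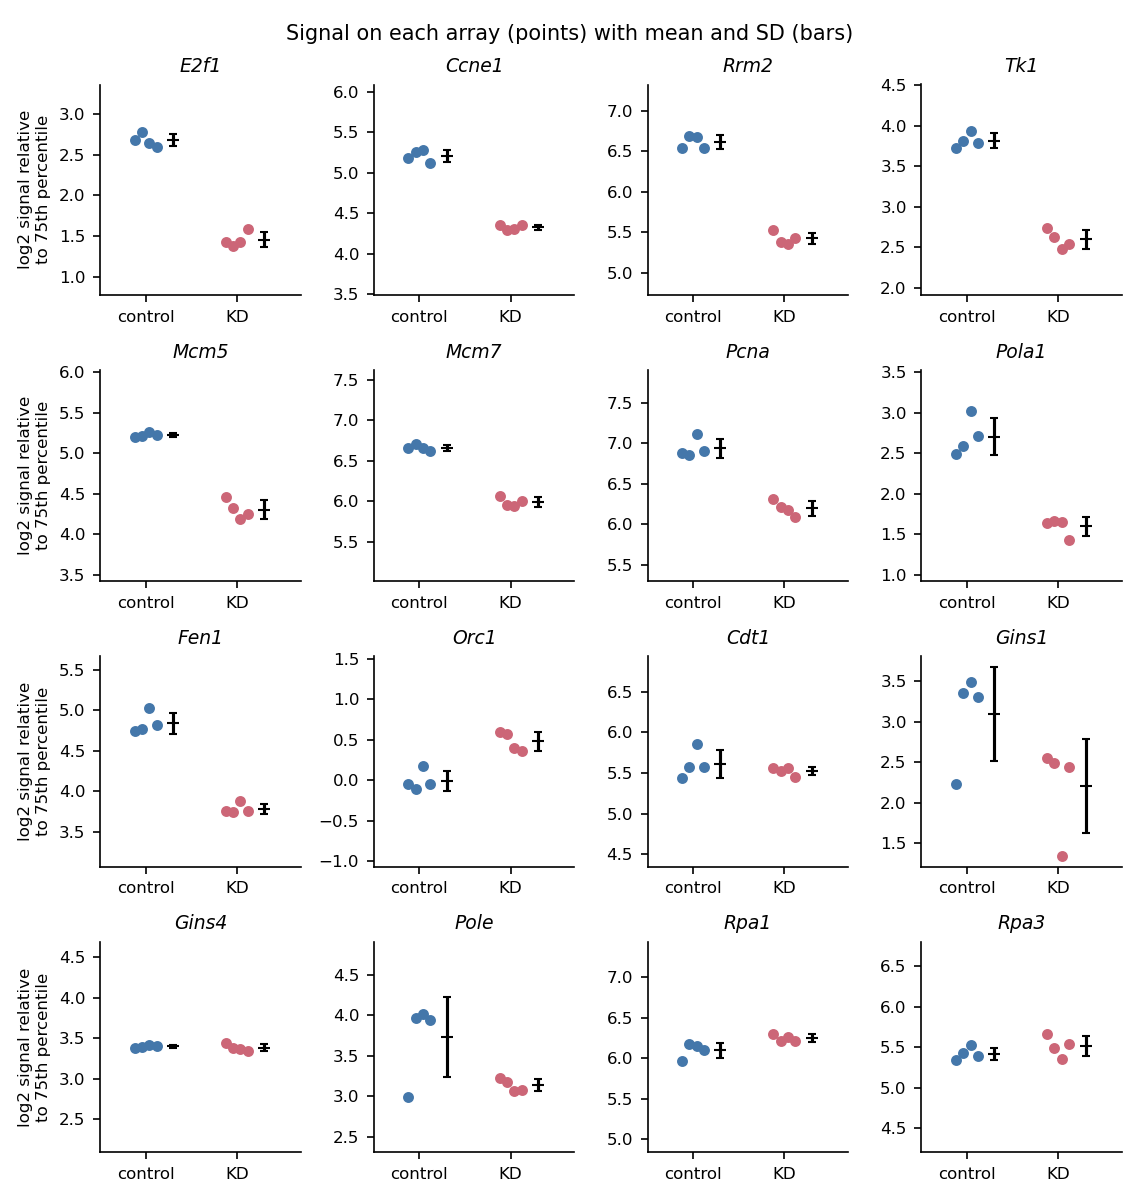
The log2 signal relative to the 75th percentile of the array for 16 replication genes, with points for the 4 control and the 4 knockdown (KD) arrays and bars for the mean and SD. E2f1, Ccne1, Rrm2, Tk1, Mcm5, Mcm7, Pcna, Pola1 and Fen1 have no overlap between groups and lie lower in the knockdown, whereas Orc1 lies higher. Gins1 and Pole have 1 control array far below the other 3.

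Of the 5 genes for origin recognition and for loading that ring, 1 fell, 1 rose and 3 did not pass. Orc1, the largest subunit of the origin recognition complex, was the 1 gene that rose: it read -0.05, -0.10, 0.18 and -0.04 in the controls and 0.59, 0.57, 0.40 and 0.36 in the knockdown, a change of 0.49 (SE 0.09, limma adjusted p = 0.00172). With each array scaled to its median in place of its 75th percentile, the change of Orc1 was 0.32 and no longer passed (adjusted p = 0.0937). Cdc6, the loading ATPase that joins the complex in G1, read -0.22, -0.05, 0.18 and 0.02 against -0.33, -0.54, -0.35 and -0.38, a change of -0.38 (SE 0.10, adjusted p = 0.00945). A second Cdc6 probe had a wider spread, from -0.72 to 0.45 in the controls and from -1.26 to -0.28 in the knockdown, and did not pass (-0.56, adjusted p = 0.171 in the fit over probes). With the mean of both probes the gene changed by -0.47 and missed the threshold (adjusted p = 0.0570).

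Cdt1, which brings the helicase to the origin, read 5.43, 5.58, 5.85 and 5.58 in the controls and 5.56, 5.52, 5.57 and 5.45 in the knockdown. Its groups overlapped (-0.09, SE 0.09, limma adjusted p = 0.478). Orc6, a small origin recognition subunit, read 5.06, 5.08, 5.03 and 5.05 against 5.09, 5.02, 4.88 and 5.004 (-0.05, SE 0.06, adjusted p = 0.504). The controls of Orc2, another subunit, spread widely, with 1.27, 1.31, 0.53 and 0.97 against 0.73, 0.83, 0.83 and 0.93 in the knockdown. Its change was -0.19 (SE 0.17, adjusted p = 0.370), and without control 3 it was -0.35 and passed (adjusted p = 0.0208).

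The helicase activation genes fell into a single gene that passed and 5 that did not. Mcm10, a factor needed to start the assembled helicase, read 4.08, 4.09, 4.20 and 4.03 in the controls and 3.69, 3.61, 3.71 and 3.71 in the knockdown (-0.42, SE 0.06, limma adjusted p = 0.000523). Cdc45, the helicase partner, read 0.03, 0.22, -0.40 and -0.16 against -0.62, -0.58, -0.37 and -0.27 (-0.38, SE 0.15, adjusted p = 0.0536). Its groups overlapped through control 3. The value stood just outside the threshold, and it passed in 9 of 20 alternative analyses, with adjusted p from 0.0113 to 0.153 over all of them.

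The 4 GINS subunits, which form 1 complex, gave different readings. Gins1 read 2.23, 3.36, 3.49 and 3.31 in the controls and 2.56, 2.49, 1.34 and 2.44 in the knockdown, a change of -0.89 that did not pass (SE 0.36, limma adjusted p = 0.0640). Control 1 and knockdown 3 stood far below the other arrays of their groups. Without control 1 the change of Gins1 was -1.18 and passed (adjusted p = 0.0120), and without knockdown 3 it was -0.60 (adjusted p = 0.133). Gins4 was the steadiest of the 4, with 3.38, 3.39, 3.42 and 3.40 against 3.44, 3.38, 3.37 and 3.34 and a change of -0.02 (SE 0.05, adjusted p = 0.833). Gins2 read 3.22, 3.27, 3.08 and 3.03 against 3.23, 2.99, 3.16 and 3.33 (0.03, adjusted p = 0.814). Gins3 read 4.24, 4.38, 4.20 and 4.75 against 4.38, 4.76, 4.73 and 4.43 (0.18, adjusted p = 0.335). The groups of Gins2, Gins3 and Gins4 overlapped.

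The sliding clamp and the 5 subunits of its loader all fell, by between 0.23 and 0.74 on the log2 scale. Pcna, the clamp that tethers polymerases to DNA, read 6.88, 6.86, 7.11 and 6.90 in the controls and 6.32, 6.22, 6.18 and 6.09 in the knockdown (-0.74, SE 0.08, limma adjusted p = 9.57e-05), or 60.0% of the control signal. Among the loader subunits, Rfc5 read 5.75, 5.83, 5.75 and 5.74 against 5.49, 5.34, 5.31 and 5.40 (-0.38, SE 0.06, adjusted p = 0.000954). Rfc4 read 5.62, 5.63, 5.66 and 5.62 against 5.44, 5.29, 5.42 and 5.45 (-0.23, SE 0.06, adjusted p = 0.00982). Both fell without overlap, but by little. A second Rfc4 probe did not pass (-0.15, adjusted p = 0.460 in the fit over probes). Rfc3 changed by -0.69 (adjusted p = 0.00992), with control 3 at 1.73 inside the range of the knockdown arrays. The weakest falls of the group, Rfc1 (-0.23), Rfc2 (-0.34) and Rfc4, missed the threshold under quantile normalization between arrays, at -0.13, -0.23 and -0.11. Rfc2 also lost its call in 6 of the 8 analyses that left out 1 array, the exceptions being those without control 3 and without knockdown 4. Rfc1 lost it without control 4 (adjusted p = 0.0573), knockdown 3 (0.0636) or knockdown 4 (0.0663).

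The 3 subunits of replication protein A, which coats single-stranded DNA behind the helicase, differed. Rpa2, the middle subunit, read 2.51, 2.56, 2.31 and 2.45 in the controls and 1.69, 1.87, 1.99 and 1.88 in the knockdown (-0.60, SE 0.09, limma adjusted p = 0.000446). Rpa3, the small subunit, read 5.35, 5.43, 5.52 and 5.39 against 5.66, 5.49, 5.36 and 5.54, with overlapping groups (0.09, SE 0.08, adjusted p = 0.374). Rpa1, the large subunit, was read by 2 probes that disagreed in sign. The brighter one, at chr11:75113898-75113957 on build mm9, read 5.97, 6.18, 6.15 and 6.10 against 6.31, 6.22, 6.27 and 6.22 and did not pass (0.15, SE 0.07, adjusted p = 0.0809). The other, at chr11:75114060-75114119, read 4.67, 4.75, 4.83 and 4.76 against 4.52, 4.51, 4.42 and 4.32 and was lower (-0.31, adjusted p = 0.00560 in the fit over probes). Neither probe overlapped between groups, so the direction of Rpa1 depended on the probe, and with the mean of both it was -0.08. Rpa1 passed as higher under quantile normalization (0.24, adjusted p = 0.0116).

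Of the polymerase genes, Pola1 fell most. This catalytic subunit of polymerase alpha, which with primase starts each new strand, read 2.49, 2.59, 3.02 and 2.71 in the controls and 1.64, 1.67, 1.65 and 1.42 in the knockdown (-1.11, SE 0.12, limma adjusted p = 9.25e-05). Prim1, the primase subunit that lays the RNA primer, read 4.82, 4.86, 5.06 and 4.90 against 4.76, 4.67, 4.66 and 4.60, a small fall of 0.24 on the log2 scale (SE 0.07, adjusted p = 0.0220). Prim1 missed the threshold without knockdown 2 (adjusted p = 0.0503), knockdown 3 (0.0527) or knockdown 4 (0.0644). Pold1, the catalytic subunit of the lagging strand polymerase delta, read 4.89, 4.93, 4.98 and 4.86 against 5.21, 4.97, 4.75 and 4.89 and did not pass (0.04, SE 0.10, adjusted p = 0.756).

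Pole, the catalytic subunit of the leading strand polymerase epsilon, was the least settled of the 26 lower genes. It read 2.99, 3.97, 4.02 and 3.94 in the controls and 3.22, 3.18, 3.07 and 3.07 in the knockdown, a change of -0.59 just inside the threshold (SE 0.22, limma adjusted p = 0.0494). Control 1 lay below all knockdown arrays. Without it the change of Pole was -0.84 (adjusted p = 6.75e-05), whereas leaving out any other single array gave an adjusted p between 0.0804 and 0.121. A second Pole probe, at chr5:110720154-110720213 on mm9, did not change beyond its spread (1.17 ± 0.11 and 1.21 ± 0.15, adjusted p = 0.754 in the fit over probes). The remaining Pole probe was not well above background on any of the 8 arrays.

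The enzymes that finish the lagging strand both fell. Fen1, the nuclease that trims the flap left by the primer, read 4.75, 4.77, 5.02 and 4.82 in the controls and 3.75, 3.74, 3.88 and 3.76 in the knockdown (-1.06, SE 0.08, limma adjusted p = 9.96e-06), or 48.0% of the control signal. Lig1, the ligase that seals the nick, read 5.91, 6.04, 5.89 and 5.88 against 5.55, 5.33, 5.22 and 5.42 (-0.55, SE 0.08, adjusted p = 0.000644). Neither gene's groups overlapped.

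Counted by probe, 44 of the 46 probes of the 39 genes were tested, and 29 were lower (28.1% of all tested probes were). A rise was called for 1 probe. The share of rises was counted only over genes, where 29.3% of all tested genes were higher. Of the 6 genes with more than 1 tested probe, Mcm3 and Ccne1 had probes that agreed in sign and call, and Cdc6, Rfc4, Rpa1 and Pole did not. Of the 26 lower genes, 20 kept their sign and their side of the threshold in all 20 alternative analyses with a test. The 6 that did not were Cdc6, Rfc1, Rfc2, Rfc4, Prim1 and Pole.

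Genes that work beside these 39 were counted from lists. Among 36 other replication genes (further subunits of the same complexes, fork protection and origin firing factors), 24 were lower (66.7%, against 28.7% of all tested genes). In this list 3 were higher (8.33%, against 29.3%), and the median was -0.41. The lower count was 18 under quantile normalization and 17 with the authors' deposited log2 values, and the higher count was 1 under median scaling and 2 with the mean of a gene's probes. Dscc1, part of an alternative clamp loader, fell by 1.49 on the log2 scale (SE 0.10, limma adjusted p = 5.50e-06). Clspn, the checkpoint mediator at the fork, fell by 1.11, and Chtf8, a partner of Dscc1 in the same loader, fell by 1.02. The largest change in this list was a rise: Pold4, the smallest accessory subunit of polymerase delta, went from -0.86 ± 0.12 (SD, n = 4) in the controls to 1.21 ± 0.05 in the knockdown (2.08, SE 0.07, adjusted p = 2.70e-07).

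Pold1, Pold2, Pold3 and Pold4 thus gave 0.04, 0.39, -0.40 and 2.08 for the 4 subunits of 1 polymerase, of which Pold2 (adjusted p = 0.00536) and Pold4 rose and Pold3 fell (adjusted p = 0.0350). Pold2 did not pass under median scaling (0.22, adjusted p = 0.229), nor did Pold3 under quantile normalization (-0.29, adjusted p = 0.0761). In polymerase alpha and primase, Pola2 (-0.88) fell with Pola1 and Prim1, and Prim2 did not pass (-0.41, adjusted p = 0.432). In polymerase epsilon, Pole2 (-0.81) and Pole3 (-0.56) fell, and Pole4, with SDs of 0.87 and 0.66, did not pass. Of the other origin recognition subunits, Orc4 rose (0.43, adjusted p = 0.00301), Orc3 fell (-0.25, adjusted p = 0.0110) and Orc5 did not pass (0.31, adjusted p = 0.308). Orc4 did not pass under median scaling (0.26, adjusted p = 0.0768) or with the mean of its probes (-0.02, adjusted p = 0.825), and Orc3 missed the threshold with the authors' deposited values (-0.15, adjusted p = 0.0508). The subunits in this paragraph that are not among the 39 were named after their values were seen.

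Of 13 genes that assemble or maintain chromatin behind the fork, 10 were lower (76.9%, against 28.7% of all tested genes). None passed as higher in limma (1 at an unadjusted p under 0.05), and the median was -0.36. The mean of a gene's probes in place of the brightest one raised the higher count from 0 to 3. The lower count of 10 was 8 to 10 over the alternative analyses. Nasp, a histone chaperone, fell by 1.33 (adjusted p = 8.49e-07), the histone chaperone Asf1a by 1.08, Uhrf1, which guides maintenance DNA methylation, by 0.88, and Ssrp1, a subunit of the FACT chaperone, by 0.68 on the log2 scale. Of 17 tested genes for other steps of nucleotide synthesis, 13 were lower (76.5%, against 28.7% of all tested genes). None was higher in limma, at adjusted or unadjusted p under 0.05, and the median was -0.42. The lower count of 13 was 9 to 14 over the alternative analyses. The purine synthesis enzyme Ppat fell by 1.22, Shmt1, which feeds one-carbon units to thymidylate synthesis, by 1.18, the pyrimidine enzyme Umps by 0.80 and the nucleoside diphosphate kinase Nme1 by 0.80.

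Among 27 tested genes of the E2F and cyclin-dependent kinase network, 15 were lower (55.6%, against 28.7% of all tested genes). In the same list 5 were higher (18.5%, against 29.3%). The lower count of 15 was 12 to 16 over the alternative analyses. Ccnd1, cyclin D1, fell from 3.26 ± 0.05 (SD, n = 4) to 0.00 ± 0.09, a change of -3.26 (limma adjusted p = 3.92e-08). The genes with the largest rises were Ccna1, a cyclin A of restricted expression (1.93), Cdkn1a, the p21 inhibitor of Cdk2 (1.43, adjusted p = 4.20e-06), and Rbl2, a pocket protein related to Rb1 (1.37). Only 2 of the 4 controls read Rbl2 well above background. It entered the test only through the knockdown arrays, where it was high, so the count of 5 rests in part on that filter. With probes required to be well above background on all 8 arrays, 4 genes of the list were higher. Both directions thus occurred in this list, with more falls than rises.

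Genes of mitosis, which follow S phase in the same cycle, did not share the shift. Of 31 tested, 6 were lower (19.4%, against 28.7% of all tested genes) and 7 were higher (22.6%, against 29.3%), with a median of 0.04, the same as over all genes. Ncapg, a condensin subunit, fell by 0.74 (limma adjusted p = 7.87e-05) and the checkpoint kinase Bub1 by 0.31 on the log2 scale. Prc1, which bundles microtubules at the spindle midzone, rose by 0.43 (adjusted p = 0.000562), and Nusap1, another spindle protein, by 0.32. The lower count was 3 without control 2, without knockdown 2 or under quantile normalization. With median scaling 9 were lower and the higher count was 0. Summed over their tested genes, in multiples of each array's 75th percentile, the signals of the replication genes were 1294 to 1401 in the controls and 943 to 1026 in the knockdown, without overlap. The same sum over the mitosis genes was 709 to 778 and 726 to 770.

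**Figure D4:**
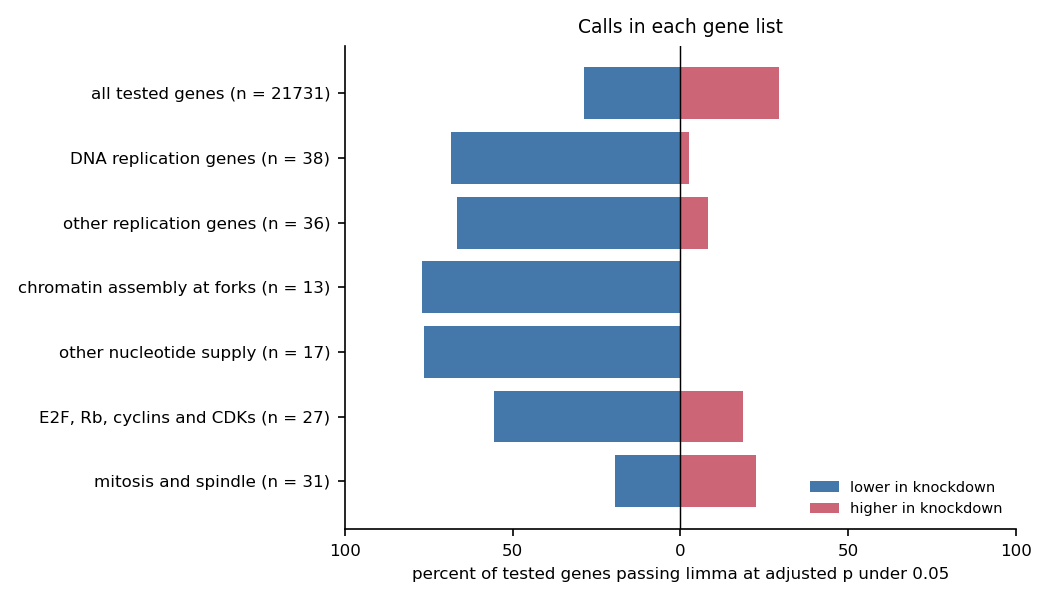
The percent of tested genes that passed limma at an adjusted p under 0.05 in each gene list, to the left for lower and to the right for higher in the knockdown. The replication genes have 68.4% lower and 2.63% higher, the mitosis genes 19.4% and 22.6%, and all tested genes 28.7% and 29.3%.

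The labelled cell type was read from marker genes, which moved with the groups. In the controls all 10 neural progenitor markers were well above background on all 4 arrays. So were all tested pluripotent, neuron and fibroblast markers, so detection does not single out the labelled cell type. Of the 10 neural progenitor markers, 8 were lower in the knockdown (80%, against 28.7% of all tested genes). Their summed signal was 119 to 130 in the controls and 32.5 to 34.4 in the knockdown. Fabp7, a radial glia marker, was not well above background on any of the 4 knockdown arrays and was at least 109-fold lower. It entered the test only through the controls, where it was high, so the count of 8 and the sum rest in part on that filter. Hes5 fell by 4.02, Sox1 by 2.39 and Vim by 1.94 on the log2 scale. Of 8 markers of the pluripotent state 4 were lower (50%, against 28.7% of all tested genes) and 3 higher (37.5%, against 29.3%). Nanog fell most (-2.44) and Tdgf1 rose most (0.98). The summed signal of the 8 was 58.2 to 65.4 in the controls and 24.5 to 26.2 in the knockdown.

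Of 8 endoderm markers, Gata6, Dab2 and Sox17 were well above background on all 8 arrays and rose by 3.14, 1.37 and 0.55. Cubn (5.37), Gata4 (2.85) and Ttr (1.15), read well above background on 3 of 4 controls each, and Afp, on none, entered the test only through the knockdown arrays, where they were high. Afp was at least 9.24-fold higher, and Apoa1 was not tested. The sum over these 7, which rests in part on that filter, was 1.58 to 1.86 in the controls and 9.07 to 9.92 in the knockdown. Of 9 neuron markers 5 were lower (55.6%, against 28.7% of all tested genes) and 2 higher (22.2%, against 29.3%), among them Tubb3 (-2.91) and Stmn2 (2.25). Dcx, read well above background on 1 of 4 knockdown arrays, entered the test only through the controls, where it was high. The neuron sums were 14.5 to 16.9 in the controls and 18.6 to 21.1 in the knockdown. Of 6 tested of 8 fibroblast markers 3 were higher (50%, against 29.3% of all tested genes), led by Thy1 (3.98). The fibroblast sums were 4.00 to 4.15 in the controls and 7.30 to 8.04 in the knockdown. Such sums weigh bright probes most, and the neuron sum was higher although more neuron markers fell than rose. The marker sums moved on the same arrays as the replication signals. Their part in the lower replication signals was not tested.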

How the data were processed

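Total RNA of 4 control and 4 knockdown samples was amplified from an oligo-dT primer, per the labels' protocols. Per the file headers, the deposited intensity of each spot was extracted and background-corrected with Agilent Feature Extraction 10.7.3.1 (design 028005, probes of 60 bases). The log2 value table deposited by the authors was an alternative only, since how it was made is not given in the sources used here. Here log2 intensity was taken minus each array's 75th percentile over non-control spots, and spots of a probe were averaged. A probe entered the test if all control arrays or all knockdown arrays read it well above background (29071 did). The probe with the highest mean stood for a gene. limma 3.58.1 in R 4.3.3 (lmFit, eBayes, two-sided) was used, with Benjamini-Hochberg adjustment over all 21731 genes and a threshold of 0.05. The fit was also run on simulated data, in which few genes changed and arrays were independent. That run does not cover a series where 58% of genes pass or where arrays may repeat a sample. The number of arrays limits the precision.

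The 39 genes and the lists were chosen with earlier results of these data known. Values per array are given for Dnajc2 and, in each role, for the 3 genes with the smallest p and each gene that rose or did not pass, and from other lists for up to 4 called genes with the largest change. Exceptions are stated. Alternatives covered background correction, normalization, filter, choice of probe, slide, replicate blocks and each array left out. Promoters came from RefSeq, GRCm38.p6. The files give probe positions on mm9. Exon annotation was not analysed here.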

Additional observations from a re-analysis of the deposited data

Results flagged for a closer look

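In each of the 38 tested replication genes, the 4 control and the 4 knockdown arrays were checked for an array standing apart, by the gap to its nearest neighbour over the range of its group. Of 76 groups, 9 had a ratio above Dixon's 95% critical value for 4 values. Chance alone flags about 1 group in 20. The ratio was highest in Pole, where control 1 (2.99) lay below controls at 3.94 and above. In Gins1, control 1 (2.23) and knockdown 3 (1.34) stood below their groups. Rfc3 had a low control 3 (1.73) and Pola1 a low knockdown 4 (1.42). The other 4 arrays differed from their neighbours by little: Mcm2 in control 4 (4.04), Rfc4 in knockdown 2 (5.29), Rfc5 in control 2 (5.83) and Fen1 in knockdown 3 (3.88). The cause was not tested.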

How the results depend on the processing

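The count of 26 lower genes was 21 to 28 over the alternatives, 22 to 27 when 1 array was left out, and 26 of 38 with slide as a block. Over all tested genes the lower count of 6242 was 5510 to 6978 over the alternatives. The count of 1 higher gene was 3 under quantile normalization, 0 under median scaling, 2 under normexp with quantile normalization and 2 with the authors' deposited log2 values. The median change of -0.48 was -0.42, -0.65, -0.41 and -0.39 in those 4, -0.42 with no filter on dim probes, -0.36 within slide 1 and -0.56 within slide 2. It was -0.50 to -0.46 when 1 array was left out. Median scaling took the all-gene median from 0.04 to -0.13, and 37.3% of its calls were higher in place of 50.5%. The replication genes' median differed from the all-gene median by -0.53 under either per-array constant, by construction, by -0.43 under quantile normalization and by -0.40 with the authors' values. The median of the licensing genes reversed to 0.036 (quantile), 0.015 (normexp with quantile) and 0.0055 (authors' values), that of the activation genes to 0.038 within slide 1, and that of replication protein A to -0.081 (median scaling), -0.079 (mean of probes) and -0.033 (within slide 3). The cause was not tested. The mitosis list's lower count of 6 was 2 with knockdown pairs averaged. Control and knockdown arrays with the same replicate number in the labels had deviations with r = 0.12, -0.12, 0.12 and -0.20 over genes. With 4 arrays a group these values cannot exclude a pairing. The replicate block gave 21 lower replication genes, against 5642 of all tested genes. Dim signal limits Ccne2, and the spread of Cdc45, Gins1 and Orc2 leaves changes of their size unresolved with 4 arrays a group.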

Other observations

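Knockdown arrays 1 and 2 share a number in their file names, as do arrays 3 and 4. The labels do not say whether a shared number marks technical repeats of 1 sample. The 4 knockdown arrays may therefore not be 4 independent samples, and the main fit treats them as such. The SD of the log2 difference between 2 arrays over all tested genes was 0.373 and 0.405 for these pairs, 0.311 to 0.417 over all knockdown pairs and 0.386 to 0.511 over control pairs. With each such pair averaged to 1 sample, 22 of the 38 replication genes were lower, against 5510 of all 21731 tested genes. Control 2 has the same file-name number as knockdown arrays 1 and 2, and control 3 the same as knockdown arrays 3 and 4. With that number as a random block, 26 of the 38 were lower. The fitted correlation within blocks was -0.12, and blocks joined arrays of both groups. This count therefore cannot show whether the shared numbers mark repeats.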
